A study of Mus musculus with 12 samples.

Results

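The 38 genes described here encode the enzymes, carriers and regulators that break down fatty acids in mitochondria and in peroxisomes. They were chosen by name as a pathway list, with earlier results of these data known but by a rule that uses no measured value, and are 38 of the 27412 gene IDs in the deposited count table. Of these, 18 act in mitochondria, 15 in peroxisomes, and 5 are shared between compartments or act elsewhere. All 38 had enough counts to be tested. The samples were thin slices of the outer kidney cortex of male mice. The 3 HIF2aM3 animals carried the γ-HIF2αM3 transgene (TG+) and are called 17-51, 17-53 and 17-56, and the 3 WT animals were wild-type C57BL/6 mice called WT 1, WT 2 and WT 3. Both kidneys of each animal were sequenced, giving 12 libraries, and neither group was treated. The series title names the construct GGT-HIF2aM3. The γ-glutamyl transferase (GGT) promoter is active in proximal tubule cells, so other cells of the slice need not carry the protein. HIF2α, the product of Epas1, is a transcription factor of the response to low oxygen, and the design sets the cortical transcriptome of transgenic mice against that of wild-type mice. The labels give no age, and they do not say whether the 3 transgenic animals belong to 1 line, so line, insertion site and transgene action cannot be told apart.

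Fatty acid oxidation removes carbon from a fatty acid in repeated rounds, each made of a dehydrogenation, a hydration, a second dehydrogenation and a thiolytic cleavage. Long chains reach the mitochondrial matrix as carnitine esters, and peroxisomes shorten very long and branched chains that mitochondria handle poorly. Proximal tubule cells are rich in both organelles and draw most of their energy from fatty acids. The nuclear receptor PPARα, with its partner RXR, is the best known activator of these genes in liver and kidney.

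Kidney 2 of 17-51 was the shallowest library with 4161829 counts, and the 11 others held 24032148 to 43499743. Epas1, the mouse gene of the transgene's protein, averaged 267 ± 16.7 CPM (read counts over library size, with TMM factors applied) in HIF2aM3 cortex and 204 ± 30.9 CPM in WT cortex (SD, n = 3 each), a log2 fold change of 0.39 ± 0.11 (SE) that missed the threshold (edgeR adjusted p = 0.0881). The labels do not say whether transgene reads are counted under Epas1. Against the label of kidney cortex, all 22 proximal tubule markers were detected, Slc34a1 at 5692 to 6806 CPM in HIF2aM3 animals and 7115 to 7788 CPM in WT animals, and all 7 podocyte markers were present. Over the 19564 genes tested, 356 were lower in HIF2aM3 cortex and 377 were higher at an adjusted p of 0.05. That is a background of 1.82% lower and 1.93% higher. The HIF2aM3 animals all lay below the WT animals in 16.5% of genes.

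Against that background, 10 of the 38 genes fell in HIF2aM3 cortex, or 26.3%, none rose and 28 did not pass the edgeR test. At an unadjusted p under 0.05, 20 were lower and 0 higher, and DESeq2 called 15 lower and 0 higher. The share of all genes lower or higher at that unadjusted p was not counted, here or for the lists below. The background above holds for adjusted p in edgeR only. Of all 38, 34 had a negative log2 fold change, and the median was -0.21, beside 0.0049 over all genes tested. In 18 of the 38 genes, or 47.4%, every HIF2aM3 animal lay below every WT animal. In 14 this held for all 12 single libraries, but kidneys of an animal are not independent. No share over all genes was counted for the single libraries. Well expressed genes had a larger share of lower calls than the table as a whole. Among the 10140 genes with a WT mean of at least 10 CPM, 37 of them members, 3.01% were called lower, 55.1% had a negative fold change, 22.5% had all HIF2aM3 animals below all WT animals, and the median was -0.02. The members that fell kept 67.9% to 80.9% of their WT mean, so the changes were moderate in size. Fewer tubule cells in a slice and less RNA per cell cannot be told apart in such bulk samples.

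The mitochondrial and peroxisomal members differed in how many passed. Of the 18 mitochondrial genes 7 fell, or 38.9%, with a median log2 fold change of -0.22, and 15 were negative. Of the 15 peroxisomal genes 2 fell, or 13.3%, with a median of -0.13, and all 15 were negative. Of the 5 other genes 1 fell, or 20.0%, with a median of -0.24. Beside these, 1.82% of all genes tested were called lower, and 3.01% of those with a WT mean of at least 10 CPM. A negative fold change was found in 49.1% of all genes tested. Summed over the 18 mitochondrial genes, 17-51, 17-53 and 17-56 had 3728, 3546 and 3730.0 CPM, against 4416, 4157 and 4230.0 CPM in WT 1, 2 and 3. The peroxisomal sums were 2525, 2360.0 and 2661 CPM in the HIF2aM3 animals, against 3037, 2834 and 3107 CPM in the WT animals. The groups did not overlap in either sum, and 17-53 was the lowest animal in both. Of the peroxisomal difference, Ehhadh and Acox3 held most, their means being lower by 213 and 126 CPM in HIF2aM3. Without these 2 genes, picked after their values were seen, the remaining 13 summed to 1600.0, 1459.3 and 1564.3 CPM in 17-51, 17-53 and 17-56, against 1712.8, 1560.4 and 1766.4 CPM in WT 1, 2 and 3, and the groups overlapped. The means were 3668 ± 106 CPM in HIF2aM3 and 4268 ± 134 CPM in WT (SD, n = 3 each) for the mitochondrial genes, and 2515 ± 151 CPM in HIF2aM3 and 2993 ± 142 CPM in WT for the peroxisomal genes. The difference between the 2 compartments was not tested, since no p is given for a score over chosen genes.

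**Figure D1:**
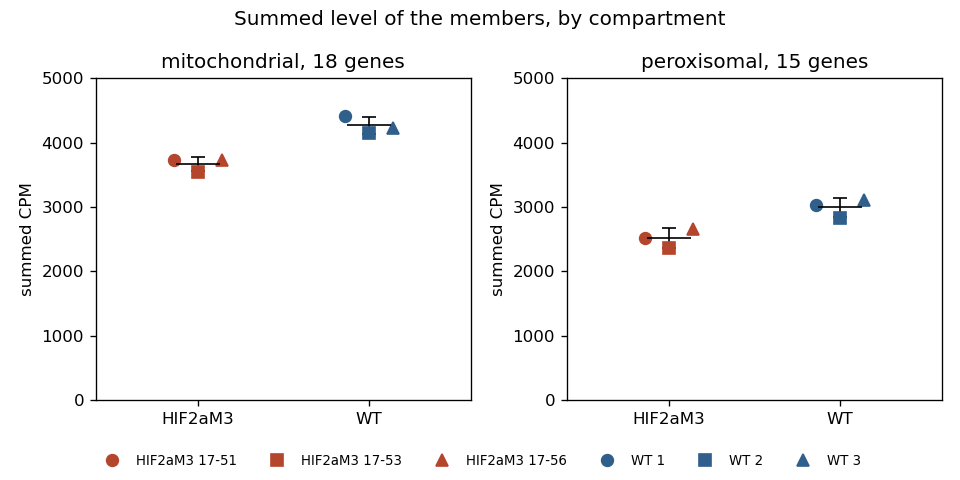
Summed level in CPM of the 18 mitochondrial genes (left) and the 15 peroxisomal genes (right) in each animal, HIF2aM3 left of WT, with the mean and SD of 3 animals as bars. The HIF2aM3 animals lie at 3546 to 3730.0 and 2360.0 to 2661 CPM, below the WT animals at 4157 to 4416 and 2834 to 3107 CPM.

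Fewer members were called when any of 5 of the 6 animals was left out, and so were fewer genes over the whole table. Calls over all genes, 733 in the main fit, dropped to 115 without WT 1, 42 without 17-51 and 11 without 17-53. They dropped to 196 without 17-56 and 187 without WT 3, and rose to 1549 without WT 2. Without WT 1, 17-51 or 17-53 no member passed, without 17-56 only Ehhadh did and without WT 3 only Slc25a20, Acaa2 and Eci1 did, while 12 passed without WT 2, and the median of the mitochondrial genes stayed between -0.27 and -0.18 in these fits. Leaving out single libraries left 9 to 11 members called, and leaving out both the shallow library and kidney 2 of 17-56 left 9. Of these 10 genes, Acadvl, Acaa2 and Etfb missed the threshold once trends on GC content and length were removed (edgeR adjusted p = 0.0774, 0.0592 and 0.089). In that fit Acadvl had a log2 fold change of -0.24, Acaa2 of -0.275 and Etfb of -0.19.

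Levels of different genes were compared per kb of exon. In HIF2aM3 cortex Ehhadh stood at 238 ± 37.98 and in WT cortex at 309 ± 2.33 CPM per kb (SD, n = 3 each), the top of the list in both. Etfb followed with 210 ± 5.41 CPM per kb in HIF2aM3 and 259 ± 5.94 in WT, then Acaa2 with 135 ± 4.48 in HIF2aM3 and 171 ± 8.63 in WT. In HIF2aM3 cortex Ehhadh and Etfb did not differ beyond the spread of Ehhadh. In HIF2aM3 cortex Acaa2 and Acadl (132 ± 10 CPM per kb) did not differ beyond their spread, whereas in WT Acadl was at 155 ± 4.83. In WT cortex 6 genes reached 100 CPM per kb, 29 lay between 10 and 100 and 3 lay below 10. Acot4, Acot3 and Hadhb were those 3, and Hadhb was the lowest with 0.312 ± 0.038 CPM per kb in HIF2aM3 and 0.313 ± 0.013 in WT.

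**Figure D2:**
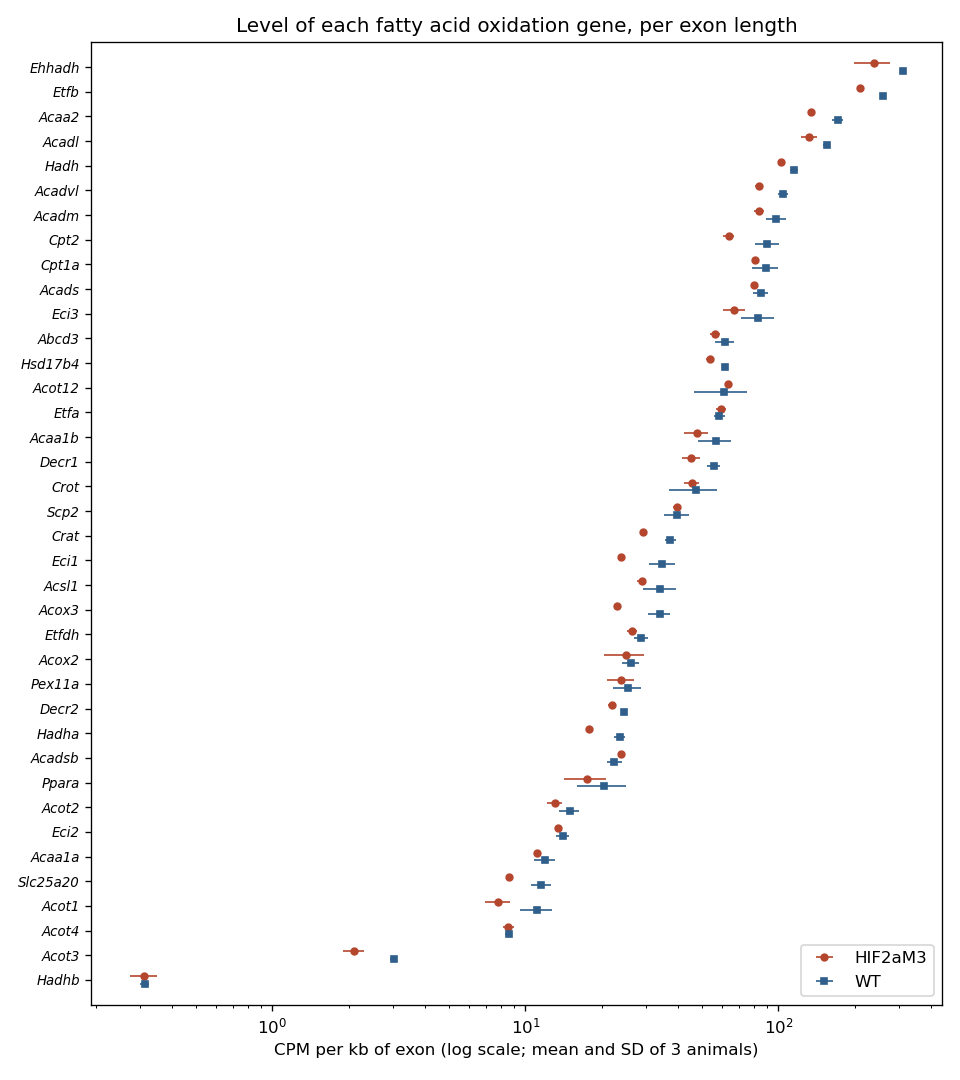
Level of the 38 genes in CPM per kb of exon on a log scale, ordered by WT level, as mean and SD of 3 HIF2aM3 animals (circles) and 3 WT animals (squares). Ehhadh and Etfb are at the top and Hadhb, at about 0.31 CPM per kb in both genotypes, is at the bottom.

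The carnitine shuttle carries acyl groups across membranes, and 3 of its 5 genes fell. Cpt2, the inner membrane carnitine palmitoyltransferase that remakes acyl-CoA in the matrix, was at 161, 146 and 149.8 CPM in 17-51, 17-53 and 17-56, against 242, 195 and 212 CPM in WT 1, 2 and 3. All 3 HIF2aM3 animals lay below the lowest WT animal, and the log2 fold change was -0.51 ± 0.09 (SE, edgeR adjusted p = 0.0309). Slc25a20, the carrier that exchanges acylcarnitine for carnitine across the inner membrane, was at 41.1, 41.6 and 42.5 CPM in the HIF2aM3 animals, against 61.6, 54.0 and 52.2 CPM in the WT animals. The HIF2aM3 animals were close together and below all WT animals, and the log2 fold change was -0.42 ± 0.07 (SE, edgeR adjusted p = 0.0281). Crat, a carnitine acetyltransferase for short chains found in mitochondria and peroxisomes, was at 158, 153 and 159 CPM in the HIF2aM3 animals, against 207, 190.4 and 207 CPM in the WT animals. Its groups were also separate, with a log2 fold change of -0.36 ± 0.06 (SE, edgeR adjusted p = 0.0265). Cpt1a, the outer membrane transferase that is the main control point of mitochondrial oxidation, did not pass. It averaged 620 ± 18.03 CPM in HIF2aM3 and 680.0 ± 79.2 CPM in WT (SD, n = 3 each), a log2 fold change of -0.13 ± 0.09 (SE, edgeR adjusted p = 0.40), and WT 3 at 603 CPM lay below all 3 HIF2aM3 animals. Crot, the peroxisomal octanoyltransferase that exports shortened chains, had a log2 fold change of -0.05 ± 0.15 (SE), with WT animals spread over 198 to 308 CPM.

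**Figure D3:**
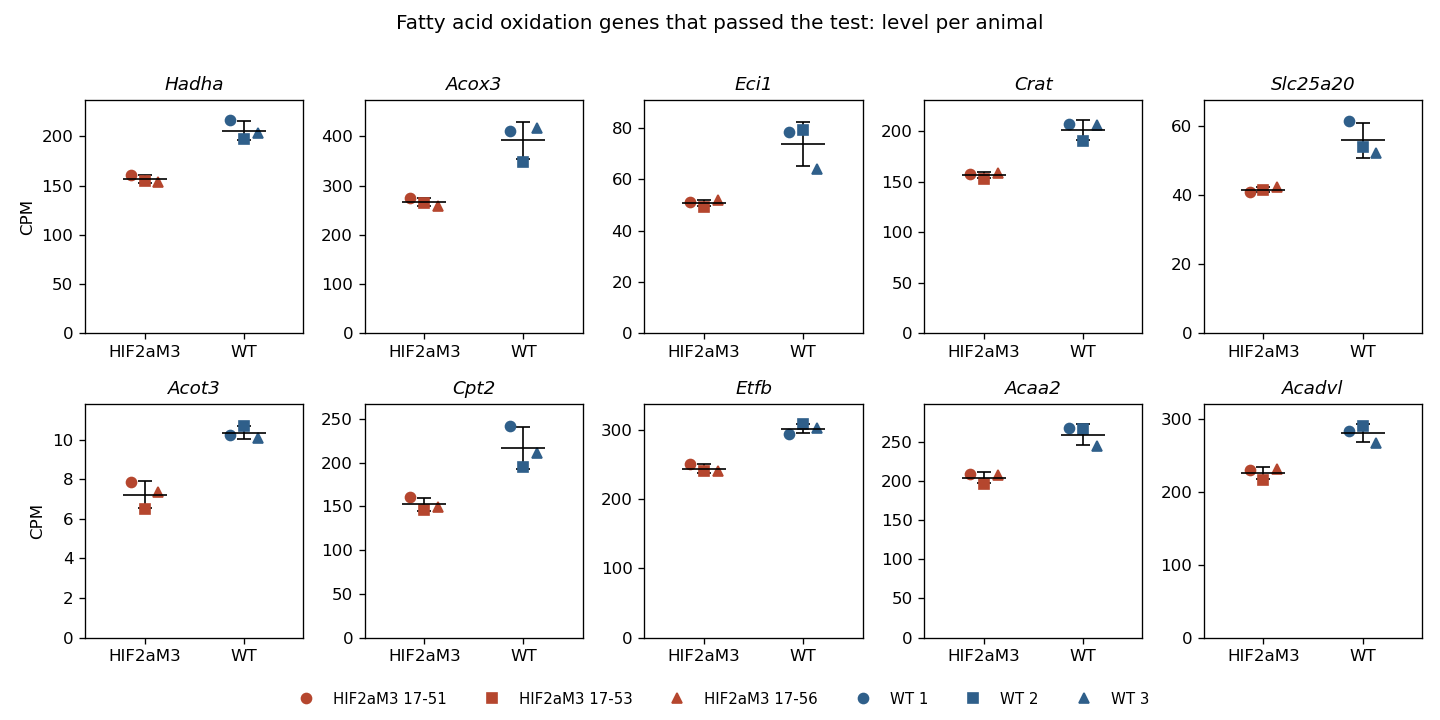
CPM per animal of the 10 genes that passed the test, HIF2aM3 left of WT in each panel, with the mean and SD of 3 animals as bars and each animal as its own marker. In each of the 10 panels the 3 HIF2aM3 animals lie below the 3 WT animals.

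Acyl-CoA dehydrogenases catalyse the first step of each round and are graded by chain length, and 1 of 5 fell. Acadvl, the dehydrogenase for very long chains, was at 229.6, 216 and 231 CPM in 17-51, 17-53 and 17-56, against 284, 291 and 267 CPM in WT 1, 2 and 3. The groups did not overlap, and the log2 fold change was -0.32 ± 0.06 (SE, edgeR adjusted p = 0.0406). Acadl, for long chains, was at 263, 247 and 287 CPM in the HIF2aM3 animals, against 315, 299 and 317 CPM in the WT animals, a log2 fold change of -0.23 ± 0.07 (SE, edgeR adjusted p = 0.109). Its animals were separate by genotype but it missed the threshold, as did Acadm, for medium chains, with a log2 fold change of -0.22 ± 0.08 (SE). Acads, for short chains, averaged 182 ± 2.52 CPM in HIF2aM3 and 193 ± 13.3 CPM in WT (SD, n = 3 each). Acadsb, which acts on short branched acyl groups from isoleucine, had the highest log2 fold change of the 38, 0.09 ± 0.06 (SE, edgeR adjusted p = 0.435).

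In the trifunctional protein and the later steps, 2 of 4 genes fell. Hadha, the α subunit of the trifunctional protein with hydratase and dehydrogenase activity, was at 161, 154 and 154 CPM in 17-51, 17-53 and 17-56, against 216, 197 and 204 CPM in WT 1, 2 and 3. It had the smallest adjusted p of the members, with a log2 fold change of -0.40 ± 0.06 (SE, edgeR adjusted p = 0.0226). Acaa2, a mitochondrial thiolase, was at 209, 197 and 209 CPM in the HIF2aM3 animals, against 268, 267 and 245 CPM in the WT animals. Here too the groups were separate, with a log2 fold change of -0.34 ± 0.06 (SE, edgeR adjusted p = 0.0342). Hadh, the dehydrogenase for medium and short chains, averaged 511 ± 15.6 CPM in HIF2aM3 and 574 ± 21.8 CPM in WT (SD, n = 3 each), a log2 fold change of -0.17 ± 0.06 (SE, edgeR adjusted p = 0.155). Hadhb, the β subunit that joins Hadha in 1 complex, was counted at 1.97, 2.34 and 1.86 CPM in the HIF2aM3 animals, against 2.12, 1.96 and 2.11 CPM in the WT animals. Its level per kb was far below that of Hadha, which had 17.9 ± 0.466 CPM per kb in HIF2aM3 and 23.6 ± 1.10 in WT (SD, n = 3 each), and whether the counting missed Hadhb reads was not tested.

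Hadha and Hadhb are transcribed in opposite directions from neighbouring starts, so the stretch between the starts is shown as the region both genes share. The window below is from RefSeq on GRCm38.p6, chr5:30154931-30155230, minus strand, and runs 5′ to 3′ from 250 bases before the Hadha start to 50 bases after it. Capitals mark the 250 printed bases that lie between the start of Hadha at 30154980 and that of Hadhb at 30155253.
Hadha: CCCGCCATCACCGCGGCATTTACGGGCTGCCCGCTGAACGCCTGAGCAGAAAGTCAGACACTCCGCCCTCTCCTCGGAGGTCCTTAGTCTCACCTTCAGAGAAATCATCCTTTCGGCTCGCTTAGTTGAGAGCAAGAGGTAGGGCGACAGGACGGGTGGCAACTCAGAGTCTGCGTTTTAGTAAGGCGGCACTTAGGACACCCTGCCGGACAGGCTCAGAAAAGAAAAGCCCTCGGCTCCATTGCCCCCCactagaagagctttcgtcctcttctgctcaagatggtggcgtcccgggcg

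The auxiliary enzymes prepare unsaturated chains for the main pathway, and 1 of the 2 mitochondrial ones fell. Eci1, an isomerase that moves the double bond of unsaturated acyl-CoA, was at 51.4, 49.4 and 51.8 CPM in 17-51, 17-53 and 17-56, against 78.5, 79.4 and 64.1 CPM in WT 1, 2 and 3. The HIF2aM3 animals were close together and below WT 3, the lowest WT animal, and the log2 fold change was -0.54 ± 0.09 (SE, edgeR adjusted p = 0.0265). Decr1, the mitochondrial dienoyl-CoA reductase, was at 176, 160.2 and 190.4 CPM in the HIF2aM3 animals, against 229 CPM in WT 1, 208 in WT 2 and 208 in WT 3. Its log2 fold change of -0.29 ± 0.08 (SE) missed the threshold (edgeR adjusted p = 0.0809) although the groups were separate. The electron transfer flavoprotein takes the electrons of the dehydrogenases to the respiratory chain, and 1 of its 3 genes fell. Etfb, the β subunit, was at 252, 241 and 240.3 CPM in the HIF2aM3 animals, against 295, 309 and 302 CPM in the WT animals. The groups were separate, with a log2 fold change of -0.31 ± 0.05 (SE, edgeR adjusted p = 0.0337) that was -0.19 with GC and length trends removed. Etfa, the α subunit of the same heterodimer, averaged 109 ± 4.61 CPM in HIF2aM3 and 107 ± 5.40 CPM in WT (SD, n = 3 each), with overlapping animals and a log2 fold change of 0.02 ± 0.06 (SE). Etfdh, the membrane enzyme that accepts the electrons, had a log2 fold change of -0.12 ± 0.07 (SE).

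In peroxisomes the first step is an oxidase, and 1 of the 2 oxidase genes listed fell. Acox3, the pristanoyl-CoA oxidase for branched chains, was at 274, 265 and 258 CPM in 17-51, 17-53 and 17-56, against 411, 347 and 417 CPM in WT 1, 2 and 3. It had the lowest fold change of the 38, a log2 value of -0.56 ± 0.08 (SE, edgeR adjusted p = 0.0234), and the highest HIF2aM3 animal lay well below the lowest WT animal. Acox2, which acts on the side chain of bile acid precursors, averaged 92.2 ± 16.7 CPM in HIF2aM3 and 96.7 ± 7.69 CPM in WT (SD, n = 3 each), and its groups overlapped. The bifunctional enzymes carry out the following 2 steps. Ehhadh, the L-specific form and a classical PPARα target in liver, was at 651, 635 and 839 CPM in the HIF2aM3 animals, against 914, 927 and 924 CPM in the WT animals. The WT animals were nearly equal, 17-51 and 17-53 were far below them and 17-56 lay between, and the log2 fold change of -0.38 ± 0.11 (SE) missed the threshold (edgeR adjusted p = 0.0937). Hsd17b4, the D-specific form, was at 191, 178 and 179.6 CPM in the HIF2aM3 animals, against 216, 207 and 205 CPM in the WT animals. Its groups were separate, with a log2 fold change of -0.20 ± 0.06 (SE, edgeR adjusted p = 0.0881).

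No gene of the peroxisomal thiolases, auxiliary enzymes or membrane proteins passed. At an unadjusted p under 0.05, 2 of these 8 were lower and 0 higher, and DESeq2 called 0. Of the thiolases, Acaa1a was at a log2 fold change of -0.10 ± 0.07 (SE) and Acaa1b at -0.25 ± 0.13, and Scp2, a thiolase and sterol carrier, was at 138 ± 4.74 CPM in HIF2aM3 and 139 ± 15.9 CPM in WT (SD, n = 3 each). Decr2, the peroxisomal dienoyl-CoA reductase, was at 60.03, 56.2 and 58.2 CPM in the HIF2aM3 animals, against 67.4, 64.3 and 63.6 CPM in the WT animals. All 3 of its HIF2aM3 animals were below the WT animals, but the log2 fold change of -0.16 ± 0.05 (SE) did not pass (edgeR adjusted p = 0.106). The log2 fold change of the isomerase Eci2 was -0.06 ± 0.06 and that of Eci3 was -0.32 ± 0.12 (SE). Abcd3, a transporter that brings acyl-CoA into peroxisomes, had -0.13 ± 0.08 (SE), and Pex11a, a protein of peroxisome division, had -0.09 ± 0.11 (SE).

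Acyl-CoA thioesterases release free fatty acids from CoA, and 1 of 5 fell. Acot3, a peroxisomal thioesterase of the gene cluster on chromosome 12, was at 7.85, 6.50 and 7.35 CPM in 17-51, 17-53 and 17-56, against 10.3, 10.7 and 10.1 CPM in WT 1, 2 and 3. The groups were separate, with a log2 fold change of -0.53 ± 0.09 (SE, edgeR adjusted p = 0.0306). Acot1, the cytosolic form, was at 34.5, 29.5 and 27.8 CPM in the HIF2aM3 animals, against 49.2, 36.7 and 44.6 CPM in the WT animals. It fell short of the threshold with a log2 fold change of -0.51 ± 0.12 (SE, edgeR adjusted p = 0.0663), its animals being separate. Acot2, the mitochondrial form, had -0.20 ± 0.08 and Acot4, a peroxisomal form, -0.01 ± 0.05 (SE). Longest transcripts of Acot1 and Acot2 were identical at 94.3% of aligned bases, those of Acot1 and Acot3 at 85.2%, those of Acot3 and Acot4 at 76.7%, those of Acaa1a and Acaa1b at 95.7% and those of Eci2 and Eci3 at 87.5%, so the counts of these genes are uncertain. Acot12, a thioesterase for acetyl-CoA, averaged 208 ± 5.26 CPM in HIF2aM3 and 201 ± 47.6 CPM in WT (SD, n = 3 each), the WT animals running from 159 to 252 CPM.

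Neither the activation gene nor the regulator passed, and both missed an unadjusted p of 0.05 and the DESeq2 threshold too. Acsl1, the main long-chain acyl-CoA synthetase, was at 302 ± 12.6 CPM in HIF2aM3 and 358 ± 53.7 CPM in WT (SD, n = 3 each), with a log2 fold change of -0.24 ± 0.11 (SE, edgeR adjusted p = 0.22). Ppara, which encodes PPARα, was at 67.1 ± 12.4 CPM in HIF2aM3 and 78.4 ± 17.2 CPM in WT (SD, n = 3 each), with a log2 fold change of -0.23 ± 0.18 (SE, edgeR adjusted p = 0.481). Animals of the 2 genotypes overlapped for both genes. Of 24 tested genes of related receptors, coactivators and PPAR targets, 5 fell, 1 rose and 18 did not pass, with a median log2 fold change of -0.27. At an unadjusted p under 0.05, 11 of them were lower and 1 higher, and DESeq2 called 9 lower and 1 higher. Pparg, which encodes the receptor PPARγ known for its part in fat storage, rose to 3.75 ± 0.374 CPM in HIF2aM3, against 1.01 ± 0.214 CPM in WT (SD, n = 3 each, log2 fold change 1.89 ± 0.18 SE, edgeR adjusted p = 0.00911). Esrra, which encodes the receptor ERRα that activates mitochondrial genes, fell to 119 ± 1.70 CPM in HIF2aM3, against 149.8 ± 1.601 CPM in WT (log2 fold change -0.34 ± 0.05 SE, edgeR adjusted p = 0.0211). Cyp4a12b, a fatty acid hydroxylase, and Nr1h3, the oxysterol receptor LXRα, fell by 0.83 ± 0.12 and 0.48 ± 0.07 (SE) on the log2 scale.

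**Figure D4:**
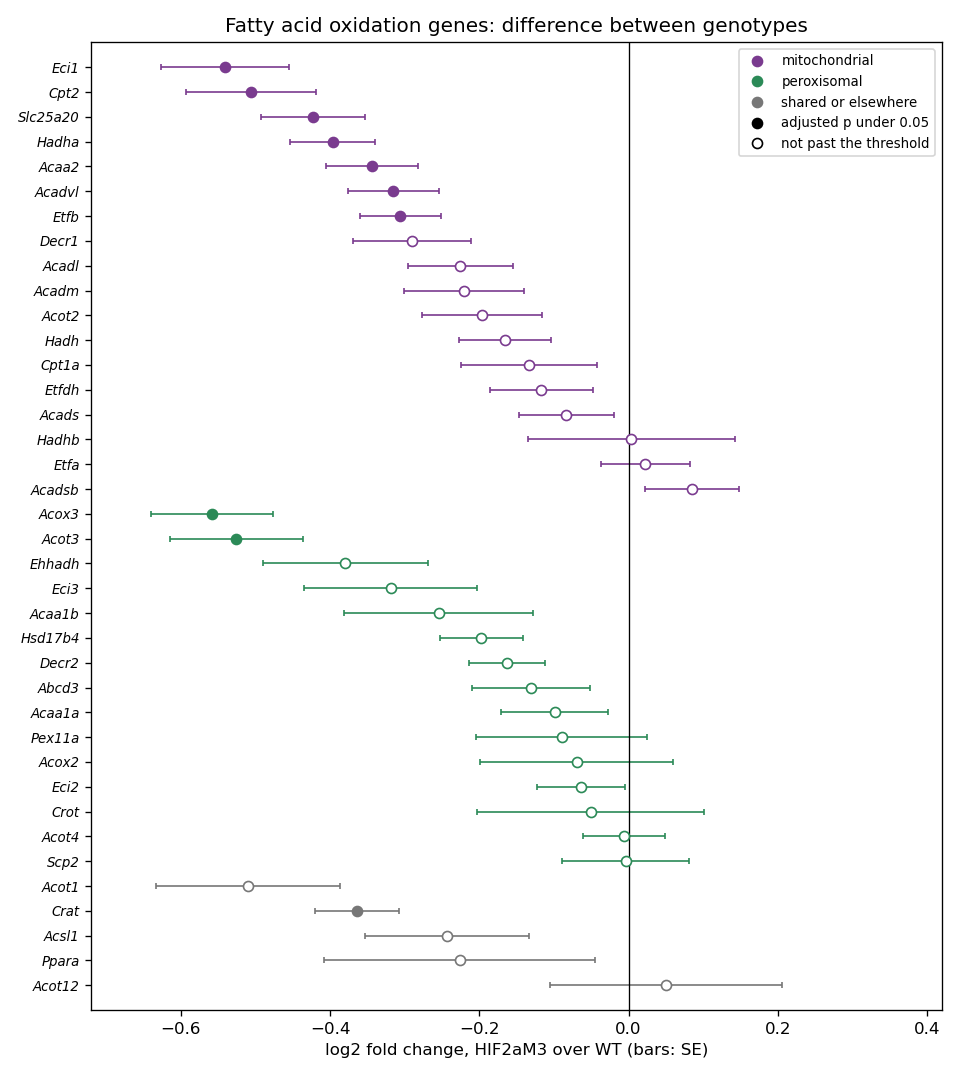
Log2 fold change of HIF2aM3 over WT with its SE for the 38 genes, by compartment from the top: mitochondrial, peroxisomal, shared or elsewhere. Filled points passed an adjusted p of 0.05, and all 10 filled points lie left of 0, between -0.56 for Acox3 and -0.31 for Etfb.

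Promoter letters were examined because 34 of the 38 genes had lower fitted values. RefSeq gave windows of 300 bases, from 250 before to 50 after the start, for 34 of the 38 members and for 27025 genes in all, on GRCm38.p6. Both strands were searched, and the direct repeat and the extended site below hold the nuclear receptor core site AGGTCA, so their matches overlap. The PPARα and RXR element, a direct repeat of the core site with 1 base between the copies, was in 0.0481% of genes and in 0 of the 34 members. Only exact matches within the windows were counted, and at so low a share 0 of 34 cannot tell members from other genes. The core site AGGTCA alone was in 18.1% of genes and in 7 of the 34 members, or 20.6%: Cpt1a, Acadm, Acadvl, Acot3, Acot4, Acot12 and Scp2. The extended core site AAGGTCA, known for ERR receptors, was in 5.38% of genes and in 3 members, or 8.82%: Acadm, Acot3 and Acot4. The letters ACGTG, 1 form of the core of the hypoxia response element, do not overlap the others. They were in 21.8% of genes and in 2 members, or 5.88%: Acadvl and Acot4. Other forms of that core were not searched.

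Acot3 and Acadvl are shown because they fell and their windows hold such letters. The Acot3 window is chr12:84051894-84052193, plus strand, and its capitals mark 1 match of AAGGTCA on the opposite strand, 18 bases after the start. The Acadvl window is chr11:70015379-70015678, minus strand, and its capitals mark AGGTCA, 87 bases before the start, and ACGTG on the opposite strand, 59 bases before it. Matches describe letters and are not evidence of binding.
Acot3: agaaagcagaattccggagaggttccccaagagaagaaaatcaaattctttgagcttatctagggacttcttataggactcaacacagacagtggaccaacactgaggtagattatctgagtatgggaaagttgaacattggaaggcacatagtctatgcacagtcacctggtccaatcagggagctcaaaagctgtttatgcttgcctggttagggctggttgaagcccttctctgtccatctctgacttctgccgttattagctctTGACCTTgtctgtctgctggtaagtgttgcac
Acadvl: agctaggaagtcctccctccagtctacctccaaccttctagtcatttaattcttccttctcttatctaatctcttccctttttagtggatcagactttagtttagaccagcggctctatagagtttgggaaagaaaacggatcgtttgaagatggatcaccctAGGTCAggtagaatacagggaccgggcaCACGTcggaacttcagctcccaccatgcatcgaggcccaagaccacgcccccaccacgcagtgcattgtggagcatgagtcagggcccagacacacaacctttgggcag

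Further genes of the pathway and of the organelles were counted as lists. Of 20 further genes of mitochondrial oxidation, 3 fell, none rose in edgeR and 17 did not pass, with a median log2 fold change of -0.045. At an unadjusted p under 0.05, 7 were lower and 0 higher, and DESeq2 called 7 lower and 0 higher. The 3 that fell in edgeR were Ech1, a dienoyl-CoA isomerase (-0.43 ± 0.08 SE), Cpt1b, the muscle form of the outer transferase (-0.53 ± 0.10 SE), and Them4, a mitochondrial thioesterase (-0.33 ± 0.06 SE). Of 42 further peroxisomal genes, 2 fell, none rose in edgeR and 40 did not pass, with a median of -0.098. Here 11 were lower and 3 higher at an unadjusted p under 0.05, and DESeq2 called 5 lower and 1 higher. Nudt19, a hydrolase of CoA, fell to 520.0 ± 75.5 CPM in HIF2aM3, against 933 ± 186 CPM in WT (SD, n = 3 each), and Tysnd1, the protease that processes peroxisomal oxidation enzymes, had a log2 fold change of -0.28 ± 0.06 (SE). Of 18 genes of fatty acid uptake and activation, 0 fell in edgeR, 1 rose and 17 did not pass, with a median of 0.094. DESeq2 called 1 lower and 4 higher, and at an unadjusted p under 0.05 there were 3 lower and 4 higher. Fabp5, a fatty acid binding protein, rose to 3.43 ± 0.519 CPM in HIF2aM3, against 0.953 ± 0.219 CPM in WT. Of 21 genes that follow mitochondrial mass, such as outer membrane import and chaperone genes, 2 fell, none rose in edgeR and 19 did not pass. Their median was -0.10, with 4 lower and 0 higher at an unadjusted p under 0.05, and DESeq2 called 3 lower and 0 higher. Tomm40, the import channel, fell by 0.26 ± 0.05 and Hspe1, a chaperonin, by 0.31 ± 0.07 (SE) on the log2 scale.

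Markers of some cell types differed between the genotypes, and their part in the results was not tested. The 22 proximal tubule markers summed to 25150.0 to 27500.0 CPM in HIF2aM3 animals and 26940.0 to 28400.0 CPM in WT animals. Their median log2 fold change was 0.02, with 2 lower (Amn and Slc22a6) and 1 higher (Slc5a12) in edgeR. At an unadjusted p under 0.05, 6 of them were lower and 2 higher, and DESeq2 called 5 lower and 2 higher. The 12 endothelial markers summed to 874 to 898 CPM in HIF2aM3 and 584 to 845 CPM in WT, 3 of them higher in edgeR (Kdr, Erg and Emcn). Of these 12, 9 were higher and 0 lower at an unadjusted p under 0.05, and DESeq2 called 9 higher and 0 lower. The 18 markers of the loop, distal tubule and collecting duct summed to 3995 to 4375 CPM in HIF2aM3 and 4694 to 5736 CPM in WT. In edgeR 5 of them were lower, among them Scnn1a, Krt7, Avpr2 and Foxi1. Of these 18, 9 were lower and 0 higher at an unadjusted p under 0.05, and DESeq2 called 8 lower and 0 higher. Of 11 leukocyte markers 1 was higher in edgeR (Csf1r), their sums running from 386 to 476 CPM in HIF2aM3 and 222 to 491 CPM in WT. At an unadjusted p under 0.05, 2 of the 11 were higher and 0 lower, and DESeq2 called 1 higher and 0 lower. None of 7 podocyte markers passed in edgeR, with 1 higher at an unadjusted p under 0.05 and 1 in DESeq2, and Magi2 had the smallest p (edgeR adjusted p = 0.0805). None of 9 fibroblast or mural markers passed in edgeR, with 4 higher at an unadjusted p under 0.05 and 2 in DESeq2, and Pdgfrb had the smallest p (edgeR adjusted p = 0.0832). The 9 fibroblast and mural markers summed to 299 to 417 CPM in HIF2aM3 and 194 to 298 CPM in WT, and the 7 podocyte markers to 614 to 642 CPM in HIF2aM3 and 545 to 751 CPM in WT. Of 8 adipocyte markers only Lipe and Car3 were tested and neither passed in edgeR, with 1 lower both at an unadjusted p under 0.05 and in DESeq2. Lipe averaged 17.3 ± 1.56 CPM in HIF2aM3 and 24.3 ± 5.24 CPM in WT (SD, n = 3 each, log2 fold change -0.49 ± 0.15 SE, edgeR adjusted p = 0.112), and Car3 ran from 10.1 to 33.0 CPM in HIF2aM3 and from 10.5 to 14.7 CPM in WT. Adipoq and Plin1 reached at most 0.0116 and 0.0349 CPM in HIF2aM3 animals and 1.21 and 0.574 CPM in WT animals. Cidec, Lep and Cfd reached at most 0.0308, 0.0116 and 0.0233 CPM in HIF2aM3 animals and 2.395, 0.99 and 1.31 CPM in WT animals. The lowest WT animal had 0 CPM for Adipoq, Plin1, Lep and Cfd and 0.015 CPM for Cidec, so the WT animals were unlike. Of 11 hepatocyte markers 7 were tested and none passed in edgeR, with 1 lower and 1 higher both at an unadjusted p under 0.05 and in DESeq2, Serpina1a having the smallest p (edgeR adjusted p = 0.115). Cps1 and Tat reached at most 0.0176 and 0.0308 CPM in HIF2aM3 and 0 in WT. The adipocyte list summed to 27.9 to 48.7 CPM in HIF2aM3 and 34.1 to 47.4 CPM in WT, and the hepatocyte list to 409.9 to 447 CPM in HIF2aM3 and 331 to 492 CPM in WT.

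Several members share exons with another gene. In the GENCODE M21 annotation 14 of the 38 overlap exons of a gene on the opposite strand, and the named library kit does not keep strand, so reads of both genes cannot be told apart. Among those that fell, Acadvl overlaps Dvl2, a Wnt signalling gene that also fell (-0.31 ± 0.05 SE, edgeR adjusted p = 0.0332). Crat overlaps Dolpp1 (-0.38 ± 0.07 SE, edgeR adjusted p = 0.0424) and Acox3 overlaps 4931431C16Rik (-0.49 ± 0.10 SE, edgeR adjusted p = 0.0432). Dolpp1 averaged 15.1 ± 0.954 CPM in HIF2aM3 and 19.6 ± 1.15 CPM in WT, and 4931431C16Rik 18.2 ± 1.084 CPM in HIF2aM3 and 25.6 ± 3.28 CPM in WT (SD, n = 3 each), well under the counts of Crat and Acox3. Dvl2 averaged 116 ± 2.73 CPM in HIF2aM3 and 144 ± 6.49 CPM in WT. Hadha overlaps Garem2, which had 10 counts in all 12 libraries. Etfb and Acot3 overlap genes on the same strand, and Acot3 also overlaps 4732463B04Rik on the opposite strand. No counts were found under the names of these overlapping genes.

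The 2 kidneys of an animal mostly gave like values. The median log2 difference of kidney 1 over kidney 2 over the 38 genes was 0.022 in 17-51, 0.042 in 17-53 and 0.187 in 17-56, against 0.041, 0.050 and 0.040 in WT 1, 2 and 3. In 17-56 all 38 genes were higher in kidney 1, and 29 of the 38 had their largest kidney difference in this animal. With kidney 1 alone 7 members fell, 5 of them mitochondrial and 1 peroxisomal, and with kidney 2 alone 7 fell, 5 of them mitochondrial and 2 peroxisomal. Over all genes, kidney 1 alone gave 686 calls and kidney 2 alone 337, lower and higher together. In 32 of the 38 genes the fold change was negative in both of these fits. No share over all genes was counted for this, and the kidneys of an animal are not independent.

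**Figure D5:**
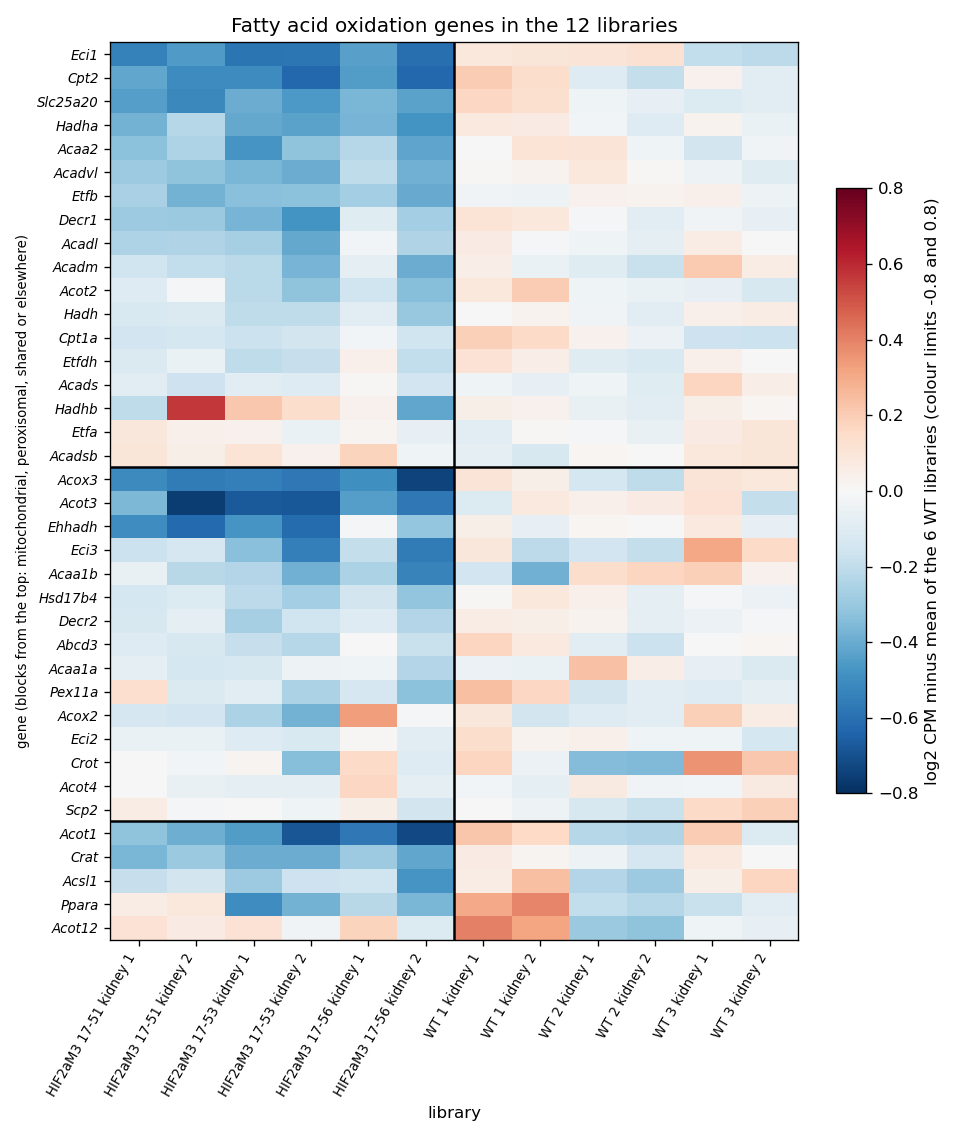
Log2 CPM of the 38 genes in each of the 12 libraries, minus the mean of the 6 WT libraries, HIF2aM3 left of WT and genes ordered by fold change within each compartment. The upper rows of each block are below 0 in all 6 HIF2aM3 libraries, and kidney 2 of 17-56 is lower than kidney 1 of that animal in all 38 genes.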

How the data were processed

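Thin slices of outer kidney cortex were prepared with a TruSeq RNA kit, per the labels' protocols, and the reads were placed on mouse build mm9, as the submitters' processing notes say. The sources used here name no aligner, counter or annotation. The authors deposited raw read counts per Ensembl gene ID, and RPKM values that they derived from them. The RPKM values served only in 1 alternative, because the authors' gene lengths matched exons summed over all transcripts (median ratio 1.002) and not exons merged per gene (1.528).

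Symbols came from a GENCODE M21 table, which matched 24630 IDs; the 2782 others held 1.18% of counts. All of these kept their place in library sizes and tests. The animal was the replicate, its 2 kidneys being added together, and genotypes were compared by quasi-likelihood F tests in edgeR 4.0.16 (R 4.3.3, filterByExpr, TMM, robust, two-sided, Benjamini-Hochberg over all genes, threshold 0.05). Each SE is the size of the log2 fold change divided by the root of its F value. Levels per kb use merged GENCODE exons, made on another build. Promoter sequences are from RefSeq. No 2 libraries agreed within sampling noise (lowest chi-square per degree of freedom 1.72). Nothing says how the animals are related, and each p-value sets the difference between genotypes against the spread between these animals. Library totals limit precision most in kidney 2 of 17-51.

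Members, lists and tests were chosen with earlier results of these data known. All 38 members are named, with animal values for called ones and the 6 next by p; from each other list up to 4 called genes by adjusted p are named, or otherwise the 1 with the smallest p. Alternatives were the 12 libraries as replicates, each kidney alone, DESeq2 1.42.0, RLE factors, library size alone, 2 other count filters, limma 3.58.1 on log2(RPKM + 1), leaving out the shallowest library and leaving out each animal. Chosen after seeing the data were the fits without each library, without 2 doubted libraries and with GC and length trends removed (lowess span 0.3). The main edgeR fit, DESeq2, limma and the GC and length fit were run on simulated counts, limma on CPM in place of RPKM. The changes simulated there were larger than those of the members, and the other alternatives were not simulated.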

Additional observations from a re-analysis of the deposited data

Results flagged for a closer look

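Values of the 6 libraries of each genotype were examined for each of the 38 genes, 76 sets in all, and 3 sets held a library far from the rest by Dixon's criterion. Chance flags about 1 in 20 such sets, and the 2 kidneys of an animal are not independent. Each of the 3 came from HIF2aM3 17-56. Cpt1a was at 669 CPM in kidney 1 of 17-56, with the other HIF2aM3 libraries at 601 to 616 CPM. Acot4 was at 64.4 CPM in the same library, with the others at 54.3 to 57.5 CPM. Acox3 was at 234 CPM in kidney 2 of 17-56, with the others at 263 to 279 CPM, and its call held without that library.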

How the results depend on the processing

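The median log2 fold changes of the mitochondrial and peroxisomal genes were negative under every alternative run, and the 10 called genes kept a negative fold change in each. The counts of calls moved more, and the cause was not tested. With the 12 libraries as replicates, which treats kidneys of 1 animal as independent, 4829 genes in all, 20 members, 12 mitochondrial and 6 peroxisomal members were called. DESeq2 called 2074 genes, 15 members and 4 peroxisomal ones. Limma on log2(RPKM + 1) called 114 genes and, of the members, Acox3 alone (1 in all, 0 mitochondrial, 1 peroxisomal). Kidney 1 alone gave 1 peroxisomal call and kidney 2 alone 337 calls in all. Removing GC and length trends gave 476 calls, 7 members and 4 mitochondrial ones. Leaving out 1 animal or 1 library gave 11 to 1549 calls in all, 0 to 12 members, 0 to 7 mitochondrial and 0 to 3 peroxisomal ones, with a peroxisomal median of -0.19 to -0.10. Each called gene kept its call in 1 or 2 of the 6 fits that left out an animal and in 11 or 12 of the 12 that left out a library; Acadvl lost it without kidney 2 of 17-56 and Acot3 without kidney 1 of WT 3. RLE factors and a minimum mean of 1 CPM changed no member's direction or call. No paired analysis was possible because the animals of the 2 genotypes share no numbers. Genes with fold changes near 0 changed sign. With 1 animal or library left out, log2 fold changes ran from -0.2146 to 0.0949 for Crot, -0.1092 to 0.1088 for Hadhb, -0.0193 to 0.0593 for Etfa, -0.055 to 0.0293 for Acot4, -0.0991 to 0.2407 for Acot12, -0.2216 to 0.0398 for Acox2, -0.0845 to 0.0828 for Scp2 and -0.2007 to 0.0073 for Pex11a. Removing GC and length trends gave 0.0411 for Acads, -0.0294 for Acadsb and -0.0949 for Hadhb. Hadhb was at -0.0079 with no count filter and -0.0281 without the shallowest library. Kidney 2 alone gave -0.0389 for Etfa and -0.0202 for Acot12, and kidney 1 alone 0.0342 for Acot4 and 0.034 for Scp2. Library size alone gave 0.015 for Acot4 and 0.0198 for Scp2, limma on RPKM 0.0148 for Acot4 and 0.0192 for Scp2, and the fit without the shallowest library and kidney 2 of 17-56 gave 0.0251 for Acot4 and 0.0193 for Scp2. Depth limits Hadhb and Acot3 most, at about 2 and under 11 CPM per animal.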
